A study of Mus musculus with 8 samples.

Results

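Plac8, Moxd1, Serpinb5, Tafa3 and Ecm1 are 5 of the 18193 genes measured in mouse CD4 T cells kept in Th17 culture. They were chosen by their measured log2 changes with digoxin in wildtype cells, where they were among the largest rises, and by a tendency to rise in RORγt-deficient cells. Values in these 2 comparisons are therefore a description, with no test. Every probe set naming 1 of these symbols was used, which gave 8 probe sets, 4 for Serpinb5 and 1 for each of the others. The cells came from the C57BL/6 strain, were sorted as naive CD4 T cells and, stimulated by CD3 and CD28 antibodies, spent 48 h in the Th17 condition. The groups were RORγt-deficient with digoxin, RORγt-deficient with DMSO (the vehicle), wildtype with digoxin and wildtype with DMSO, with 2 Affymetrix Mouse Genome 430 2.0 arrays each. All 4 groups shared the antibody stimulation and the Th17 culture, and the vehicle or drug was the only agent that the labels add. The labels give neither the allele behind the deficiency, nor the dose of digoxin, nor the animals' age, and mark replicates as biological without naming an animal or a culture for each. Every p-value therefore rests on the scatter among the arrays, part of which may be technical.

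RORγt is a nuclear receptor that directs the Th17 fate of CD4 T cells and binds DNA at ROR elements, among them elements near Il17a. Digoxin is a cardiac glycoside that blocks the Na,K-ATPase, and the series' title names it as an antagonist of RORγt, so genes that move in the same direction with the drug and with loss of the receptor bear on the question the study asked. The 5 genes belong to unrelated families. Plac8, also called onzin, encodes a small cysteine-rich protein of blood cells, and mice without it have neutrophils that kill bacteria poorly. Moxd1 encodes a relative of dopamine beta-hydroxylase, a copper-dependent monooxygenase. Serpinb5 encodes maspin, a clade B serpin that does not inhibit proteases and is best known from mammary epithelium. Tafa3 encodes a secreted protein of the chemokine-like TAFA family, known mainly from brain. Ecm1 encodes a secreted glycoprotein of the extracellular matrix that mouse Th2 cells need to leave lymph nodes and that restrains Th17 responses in a mouse model of autoimmune neuroinflammation.

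The sequence before a listed transcription start of each gene is shown because the 5 genes moved in the same direction and because a nuclear receptor and T cell factors that bind short DNA motifs are at issue. Each line gives the 150 bases up to that start, 5′ to 3′ on the gene's strand, from RefSeq (GRCm38.p6), with matches to the searched motifs in capitals. For Plac8, which has 2 listed starts, the one at higher coordinates is shown. The listed start need not be the outermost one. On the minus strand, the Ecm1 and Tafa3 lines lie within the annotated genes, which reach 95739876 and 104779542. The Plac8 line overlaps its gene, which reaches 100572253.
Plac8 promoter, chr5:100572206-100572355, minus strand: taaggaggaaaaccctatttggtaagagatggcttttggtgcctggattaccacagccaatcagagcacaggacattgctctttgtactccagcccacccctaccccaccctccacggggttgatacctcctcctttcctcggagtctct
Moxd1 promoter, chr10:24223367-24223516, plus strand: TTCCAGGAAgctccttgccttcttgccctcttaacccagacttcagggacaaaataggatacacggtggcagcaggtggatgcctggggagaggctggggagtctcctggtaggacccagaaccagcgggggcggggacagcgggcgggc
Serpinb5 promoter, chr1:106861025-106861174, plus strand: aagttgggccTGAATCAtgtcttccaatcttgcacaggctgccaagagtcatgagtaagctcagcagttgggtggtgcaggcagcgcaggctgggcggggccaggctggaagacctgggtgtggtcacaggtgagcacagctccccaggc
Tafa3 promoter, chr3:104777548-104777697, minus strand: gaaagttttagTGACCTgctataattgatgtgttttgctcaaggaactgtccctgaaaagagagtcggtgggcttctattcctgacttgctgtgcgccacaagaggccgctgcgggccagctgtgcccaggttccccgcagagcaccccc
Ecm1 promoter, chr3:95739570-95739719, minus strand: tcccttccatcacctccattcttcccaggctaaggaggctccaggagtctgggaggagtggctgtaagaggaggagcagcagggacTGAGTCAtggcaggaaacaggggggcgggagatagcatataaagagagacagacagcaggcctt

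The searched motifs were TAGGTCA (the core of a ROR element), AGGTCA (the nuclear receptor core, which overlaps every TAGGTCA), the AP-1 and BATF motif (TGA and TCA around 1 base of any kind), TTCNNNGAA (STAT) and CACGTG (E-box), on both strands of a window from 250 bases before to 50 bases after the start. TAGGTCA was in 0 of the 6 windows of the 5 genes and in 2.61% of all 32851 promoters. AGGTCA was in 1 of the 6, that of Tafa3, on the opposite strand, and in 16.3% of all promoters. The AP-1 motif was in 2 of the 6, that of Ecm1, where it starts 64 bases before the listed start, and that of Serpinb5, where it starts 140 bases before, and in 7.81% of all promoters. TTCNNNGAA was in 2 of the 6, that of Moxd1, 150 bases before the start, and that of Tafa3, after the start, and in 8.3% of all promoters. CACGTG was in 0 of the 6 and in 7.15% of all promoters. Neither Plac8 window held any of these motifs. A match is a run of letters, not a shown binding site.

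The deposited values are on the log2 scale, and every probe set had been centred on its wildtype DMSO mean, so wildtype DMSO stands at 0. Of the level before centring only a broad range for the lowest array could be recovered. The 5 genes shared a shape: on all 6 arrays of the other groups each of them was above both wildtype DMSO arrays, which 7.99% of all genes were. This shape is a description and largely follows from the choice. The choice used the wildtype digoxin, RORγt-deficient DMSO and wildtype DMSO arrays. The 5 genes differed in how the 6 arrays were ordered. Plac8 and Ecm1 stood at about the same value in RORγt-deficient DMSO and wildtype digoxin cells, and highest in RORγt-deficient digoxin cells. Moxd1, Serpinb5 and Tafa3 stood highest in wildtype digoxin cells and lowest by mean, among the 3 groups above wildtype DMSO, in RORγt-deficient DMSO cells. For Moxd1 the place of wildtype digoxin above RORγt-deficient digoxin rested on 1 array: RORγt-deficient minus wildtype cells under digoxin gave -0.10 with all arrays, and 0.11 without wildtype digoxin array 1.

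**Figure D1:**
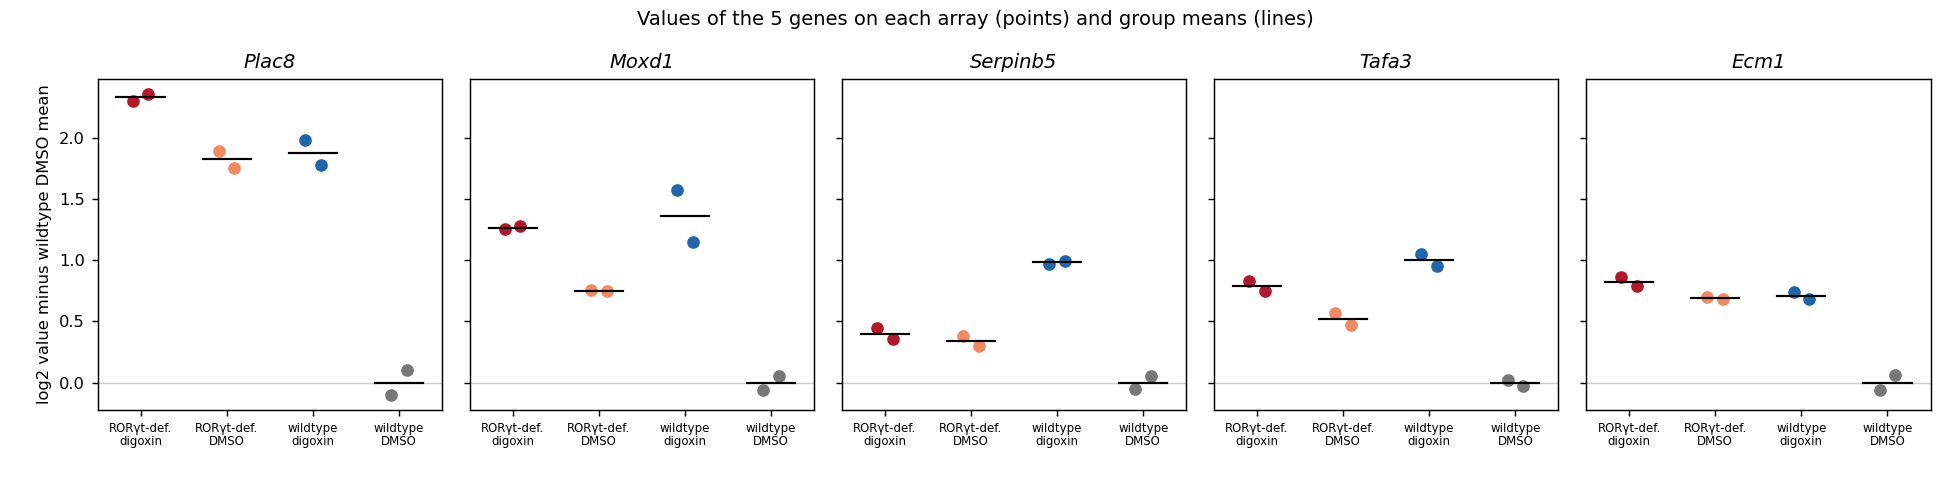
Log2 value of each of the 5 genes minus the wildtype DMSO mean (vertical axis) on each array (points), by group, with group means as lines. The wildtype DMSO points lie lowest in every panel; Plac8 reaches 2.36 on a RORγt-deficient digoxin array, and Serpinb5 is at 0.97 and 0.99 in wildtype digoxin cells, above both RORγt-deficient groups.

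Plac8 had values of 2.30 and 2.36 on the RORγt-deficient digoxin arrays, 1.89 and 1.76 in RORγt-deficient DMSO, 1.98 and 1.78 in wildtype digoxin, and -0.10 and 0.10 in wildtype DMSO. The RORγt-deficient DMSO and wildtype digoxin arrays overlapped, and the RORγt-deficient digoxin arrays lay above them. With digoxin, wildtype cells had 3.67-fold higher Plac8 (1.88 ± 0.12 on the log2 scale, limma SE, 2 arrays in each group, as for all changes here) and 3.54-fold higher with RORγt deficiency in DMSO (1.82 ± 0.12), rank 1 of 18193 genes in both. Both changes are against the same wildtype DMSO arrays. In RORγt-deficient cells digoxin was accompanied by a further difference of 0.50 ± 0.12 (1.42-fold). Among all genes tested this was rank 15, and it did not pass the test (limma adjusted p = 0.9996, unadjusted p = 0.002).

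Moxd1 had values of 1.25 and 1.28 in RORγt-deficient digoxin, 0.76 and 0.75 in RORγt-deficient DMSO, 1.57 and 1.15 in wildtype digoxin, and -0.06 and 0.06 in wildtype DMSO. The wildtype digoxin arrays lay on either side of the RORγt-deficient digoxin arrays, with an SD of 0.30 between them, and the RORγt-deficient DMSO arrays were below all of these. Moxd1 was 2.57-fold higher with digoxin in wildtype cells (1.36 ± 0.14), the second largest rise, and 1.68-fold higher with RORγt deficiency in DMSO (0.75 ± 0.14), rank 36. Digoxin in RORγt-deficient cells gave a difference of 0.52 ± 0.14, rank 13, which did not pass the test (limma adjusted p = 0.9996, unadjusted p = 0.00409).

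Tafa3 had values of 0.83 and 0.75 in RORγt-deficient digoxin, 0.57 and 0.47 in RORγt-deficient DMSO, 1.05 and 0.95 in wildtype digoxin, and 0.02 and -0.02 in wildtype DMSO. No 2 groups overlapped. Tafa3 was 2.0-fold higher with digoxin in wildtype cells (1.00 ± 0.10) and 1.44-fold higher with RORγt deficiency in DMSO (0.52 ± 0.10, not called, but called with the replicate block, array weights, the level filter and the median of probe sets). Digoxin in RORγt-deficient cells gave 0.27 ± 0.10 and RORγt deficiency under digoxin gave -0.21 ± 0.10. Neither passed the test (limma adjusted p = 0.9996 and 0.938).

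Ecm1, which had the narrowest spread of the 3 upper groups, was at 0.86 and 0.79 in RORγt-deficient digoxin, 0.70 and 0.68 in RORγt-deficient DMSO, 0.74 and 0.68 in wildtype digoxin, and -0.06 and 0.06 in wildtype DMSO. Its RORγt-deficient DMSO and wildtype digoxin arrays overlapped. Ecm1 was 1.64-fold higher with digoxin in wildtype cells (0.71 ± 0.10) and 1.61-fold higher with RORγt deficiency in DMSO (0.69 ± 0.10). Digoxin in RORγt-deficient cells gave 0.14 ± 0.10, with a 95% interval from -0.09 to 0.36, and RORγt deficiency under digoxin gave 0.11 ± 0.10. Neither passed the test (limma adjusted p = 0.9996 and 0.985).

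Serpinb5 was read by 4 probe sets. On probe set 1424623_at, the one taken for the gene, it had values of 0.44 and 0.35 in RORγt-deficient digoxin, 0.38 and 0.30 in RORγt-deficient DMSO, 0.97 and 0.99 in wildtype digoxin, and -0.05 and 0.05 in wildtype DMSO. Both RORγt-deficient groups overlapped each other and lay below wildtype digoxin. The gene was 1.97-fold higher with digoxin in wildtype cells (0.98 ± 0.10) and 1.27-fold higher with RORγt deficiency in DMSO (0.34 ± 0.10, not called). RORγt deficiency under digoxin gave -0.58 ± 0.10, with a 95% interval from -0.81 to -0.35. It was the smallest adjusted p of the 5 genes in any tested comparison and did not pass (limma adjusted p = 0.16, unadjusted p = 0.000232). The gene was chosen for a high value on the wildtype digoxin arrays, which pulls this difference towards negative values. Its p is therefore not free of the choice.

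The other Serpinb5 probe sets gave the same order of wildtype digoxin over wildtype DMSO but different sizes in the deficient cells. Probe set 1421752_a_at, whose lowest array level before centring was at 8 or above on the log2 scale while that of the other 3 lay between 4 and 8, had 0.84 and 0.95 in RORγt-deficient digoxin, 0.66 and 0.71 in RORγt-deficient DMSO, 1.09 and 1.24 in wildtype digoxin, and 0.01 and -0.01 in wildtype DMSO. There the change with RORγt deficiency in DMSO was 0.69, which was called when every probe set was tested, against 0.34 on 1424623_at, which was not. Probe set 1438856_x_at gave 0.60 and 1441941_x_at 0.41. The change with digoxin in wildtype cells ranged from 0.92 on 1438856_x_at to 1.17 on 1421752_a_at. On 1441941_x_at the 2 wildtype digoxin arrays stood far apart, at 1.32 and 0.61, as did the RORγt-deficient DMSO arrays, at 0.72 and 0.10. RORγt deficiency under digoxin was negative on all 4 probe sets, from -0.58 to -0.27, and was called on none of them when every probe set was tested.

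**Figure D2:**
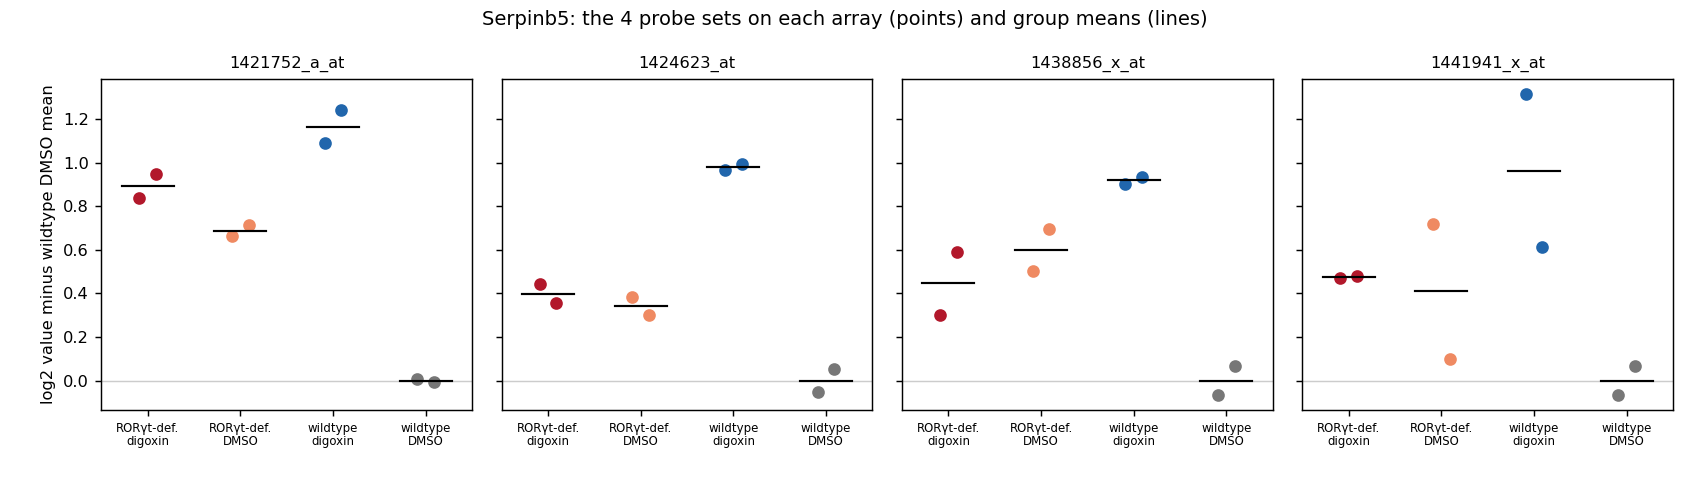
Log2 value of the 4 Serpinb5 probe sets minus the wildtype DMSO mean (vertical axis) on each array (points), by group, with group means as lines. Wildtype digoxin has the highest mean on every probe set, at 1.17 on 1421752_a_at and 0.98 on 1424623_at, while the RORγt-deficient groups differ in height between probe sets.

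Counted together, 5 of 5 genes were called higher with digoxin in wildtype cells, the comparison that chose them, where limma called 0.0715% of 18193 genes higher. Their arrays did not overlap wildtype DMSO in either of the comparisons that chose them, as was so for 19.6% of all genes with digoxin in wildtype cells and 20.1% with RORγt deficiency in DMSO. Of the 5, Plac8, Moxd1 and Ecm1 were called higher with RORγt deficiency in DMSO, which the choice also used and where 0.28% of all genes were called higher. Without either wildtype DMSO array in turn, digoxin in wildtype cells left 1 of the 5 called, and without wildtype digoxin array 2 it left 3. For RORγt deficiency in DMSO, 1 of the 5 was called without each wildtype DMSO and each RORγt-deficient DMSO array in turn. Plac8 was called in both comparisons without each of the 8 arrays in turn, while Ecm1 was not called with digoxin in wildtype cells in any of those 8 fits. Quantile normalisation of the centred values left 0 of the 5 called in either comparison, with Plac8 at 1.56 for digoxin in wildtype cells and at 1.48 for RORγt deficiency in DMSO.

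**Figure D3:**
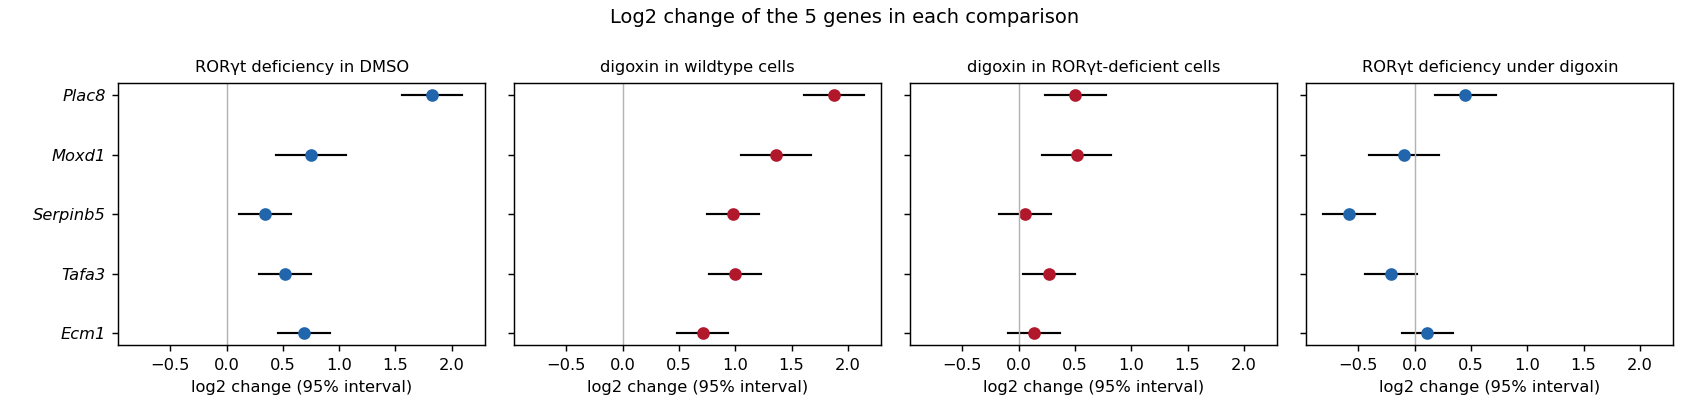
Log2 change of the 5 genes (points) with 95% limma intervals (lines) in each of 4 comparisons: both against wildtype DMSO, and both that involve RORγt-deficient digoxin cells. The intervals of the 2 comparisons against wildtype DMSO, which chose the genes, lie above 0; in RORγt-deficient cells the largest digoxin difference is 0.52, that of Moxd1.

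The RORγt-deficient digoxin arrays were not used to choose the genes, but both groups they are tested against were. Choosing high values in those groups pulls both differences towards negative values. The p-values of the 5 genes, and counts of them by p, are therefore not free of the choice and are read as a description. Digoxin in RORγt-deficient cells gave positive differences for 5 of the 5 genes, with a median of 0.27, against 0.02 over all genes. The sign for Serpinb5 depended on the probe set, at 0.06 on the one taken, -0.15 on 1438856_x_at and -0.04 with the median of its 4 probe sets. The arrays did not overlap for 4 of the 5, Plac8, Moxd1, Tafa3 and Ecm1, and 17.8% of all genes were likewise higher without overlap. Limma called 0 of the 5 and 0% of all genes higher in this comparison, 3 of the 5 had an unadjusted p under 0.05, and 639 of the 18193 genes did. For RORγt deficiency under digoxin the signs divided. Plac8 (0.45 ± 0.12) and Ecm1 were higher without overlap, as 17.4% of all genes were, Serpinb5 and Tafa3 were lower without overlap, as 13.6% of all genes were, and Moxd1 overlapped (-0.10 ± 0.14). Limma called 0 of the 5, and it called 0.0055% of all genes. At an unadjusted p under 0.05 were 2 of the 5, Plac8 and Serpinb5, and 1003 of the 18193 genes. That single gene in either comparison was Il17a, named after its values were seen, which fell by 1.88 with digoxin in RORγt-deficient cells and by 1.6 with RORγt deficiency under digoxin (limma adjusted p = 0.000634 and 0.00299).

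Set directly against each other, RORγt-deficient DMSO minus wildtype digoxin cells differed by -0.05 for Plac8 (95% interval -0.32 to 0.22) and by -0.02 for Ecm1 (-0.25 to 0.21). These intervals hold 0, but for Plac8 they still allow a difference of 0.32 in favour of digoxin. The differences were -0.61 for Moxd1 (-0.92 to -0.30), -0.64 for Serpinb5 (-0.87 to -0.41) and -0.48 for Tafa3 (-0.71 to -0.25), all with digoxin above deficiency. Because the genes were picked for a high value in wildtype digoxin cells, these differences are a description and the choice pulls them towards negative values. On Serpinb5 probe set 1421752_a_at the group means were 0.69 in RORγt-deficient DMSO and 1.17 in wildtype digoxin.

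In all 5 genes the value in RORγt-deficient digoxin cells was under the sum of the 2 single changes. For Plac8 it was 2.33 (5.02-fold over wildtype DMSO) against a sum of 3.70, a shortfall of -1.37 with a 95% interval from -1.76 to -0.99, the most negative difference between digoxin effects among all 18193 genes. For Ecm1 it was 0.82 against a sum of 1.40. Moxd1, at 1.27, Serpinb5, at 0.40, and Tafa3, at 0.79, also lay under the larger of their own single changes, 1.36, 0.98 and 1.00, which for Moxd1 did not hold without wildtype digoxin array 1. Limma called 0% of the 18193 genes for this difference, and 562 had an unadjusted p under 0.05. A gene chosen for a high rise in wildtype cells tends to a negative difference here, and the wildtype DMSO arrays enter both single changes, so no test is attached.

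**Figure D4:**
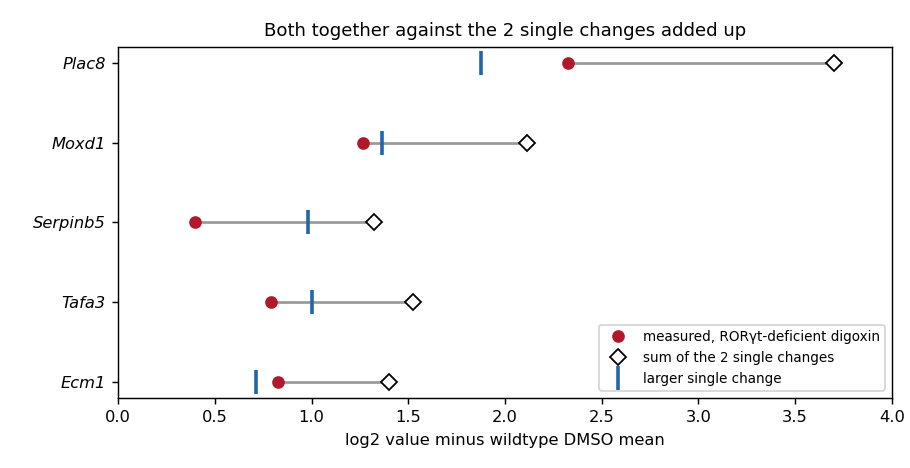
Log2 value minus the wildtype DMSO mean (horizontal axis) measured in RORγt-deficient digoxin cells (circles), beside the sum of the 2 single changes (diamonds) and the larger single change (ticks), for each of the 5 genes. Each circle lies left of its diamond, for Plac8 at 2.33 against 3.70, and those of Plac8 and Ecm1 lie right of their ticks.

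The 5 genes were among 13 called higher with digoxin in wildtype cells. The other 8, Klrd1, Il10, Gpr15, Ifitm1, Slfn1, Gzmb, Nkg7 and Cd86, were all called higher with RORγt deficiency in DMSO too, from 0.73 for Gpr15 to 1.75 for Slfn1, whereas Tafa3 and, on the probe set taken, Serpinb5 were not. In RORγt-deficient cells digoxin differences of these 8 ranged from -0.01 for Il10 to 0.37 ± 0.12 for Gpr15. Plac8 and Moxd1, at 0.50 ± 0.12 and 0.52 ± 0.14, stood above this range. Tafa3 (0.27), Ecm1 (0.14) and Serpinb5 (0.06) lay within it, and none of these differences was called. For the other 8, shortfalls from the summed single changes ranged from -1.34 to -0.55, with a median of -0.76. Just inside the threshold of digoxin in wildtype cells was Ecm1, at 0.71. Just outside it by adjusted p were Gbp2 (0.75 ± 0.11), an interferon-induced GTPase gene, Xdh (0.72 ± 0.11), which encodes xanthine dehydrogenase, and Samd9l (0.79 ± 0.12). The largest rises outside it were those of Stom (1.13 ± 0.18), which encodes the membrane protein stomatin, and Klrk1 (1.03 ± 0.16), the gene of the receptor NKG2D.

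The genes most like each of the 5 were taken by the smallest root mean square difference of the log2 values over the 8 arrays, which shared all arrays and their scaling. For Plac8 these were Klrd1, which encodes CD94 (0.50), Slfn1, a Schlafen family gene (0.52), and the cytokine gene Il10 (0.57). Slfn1 was close to Plac8 in RORγt-deficient DMSO cells, at 1.75, but stood at 0.93 in wildtype digoxin cells. For Moxd1 they were Ifitm1, an interferon-induced membrane protein gene (0.18), Gpr15, a homing receptor gene (0.20), and Stom (0.23). Ecm1 had the closest companions, the potassium channel gene Kcnj8 (0.08), the phospholipid flippase gene Atp8b4 (0.10) and the prohormone convertase gene Pcsk1 (0.10). For Tafa3 they were Samd9l (0.13), Ecm1 (0.18) and Specc1 (0.18), and for Serpinb5 the peptidoglycan recognition gene Pglyrp2 (0.19), 9030619P08Rik (0.20) and B430306N03Rik (0.20). Of the pairs among the 5 genes, Tafa3 and Ecm1 were closest (0.18) and Plac8 and Serpinb5 farthest apart (1.30). This measure also counts the size of the changes. By Pearson correlation over the 8 arrays, Plac8 and Ecm1 were closer (r = 0.995) than Tafa3 and Ecm1 (r = 0.888). The 5 genes were chosen to stand above wildtype DMSO, so high correlations among them, and with other such genes, largely follow from the choice.

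Relatives of the 5 genes were set beside them from lists of each family. Because the 5 were chosen for large rises with digoxin in wildtype cells, a lower value of a relative there is a description only. In the PLAC8 domain family, 2 of the 3 other genes were measured, and Plac8l1 (0.13) and the cornified envelope gene Cnfn (0.07) were not called with digoxin in wildtype cells. Among copper monooxygenases, Pam, which amidates peptide hormones, stood at 0.22, Dbh, dopamine beta-hydroxylase, at -0.12 and Moxd2 at 0.01 in the same comparison. Of the other clade B serpins 17 of 26 were measured and 0 were called in any of the 4 comparisons, with medians of 0.03 for digoxin in wildtype cells and 0.04 for RORγt deficiency in DMSO, against 0.01 and 0.00 over all genes. Of these 17, 11 had a lowest array level between 2 and 4, the lowest range seen. The largest absolute changes with digoxin in wildtype cells were those of Serpinb9 (0.25), which encodes an inhibitor of granzyme B, and Serpinb6e (-0.23). With RORγt deficiency the largest was that of Serpinb1a, at -0.51 in DMSO and -0.53 under digoxin, opposite in sign to Serpinb5 in DMSO. The other 4 TAFA genes were all measured and ranged from -0.08 for Tafa2 to 0.07 for Tafa5 with digoxin in wildtype cells. With RORγt deficiency in DMSO they ranged from -0.16 for Tafa4 to 0.32 for Tafa2, and Tafa2 stood at -0.38 with digoxin in RORγt-deficient cells. None of the PLAC8, monooxygenase, serpin and TAFA relatives was called in any of the 4 comparisons, whose background shares were 0.121%, 1.05%, 0.0055% and 0.0055% called in either direction, in the order of wildtype digoxin, deficient DMSO, and the 2 comparisons with RORγt-deficient digoxin cells.

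The list set beside Ecm1 held 11 other genes of its reported partners and of T cell migration, 10 of them measured. With digoxin in wildtype cells 0 were called, with a median of 0.08, and the largest changes were those of Klf2 (0.31), a transcription factor of T cell egress, and Fbln1 (0.28), a matrix protein gene. S1pr1, the egress receptor gene whose return in mouse Th2 cells depends on Ecm1, stood at -0.02 with digoxin in wildtype cells and -0.10 with RORγt deficiency in DMSO. Il2rb, which encodes the interleukin 2 receptor chain that ECM1 binds, stood at -0.22 and 0.07 in these comparisons. Ccr7, a lymph node homing receptor gene, rose with RORγt deficiency in DMSO (0.58, limma adjusted p = 0.0255) and was the only one of the 10 called in any comparison. That call was lost without any 1 of the RORγt-deficient digoxin, RORγt-deficient DMSO or wildtype DMSO arrays (limma adjusted p from 0.0602 to 0.259).

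**Figure D5:**
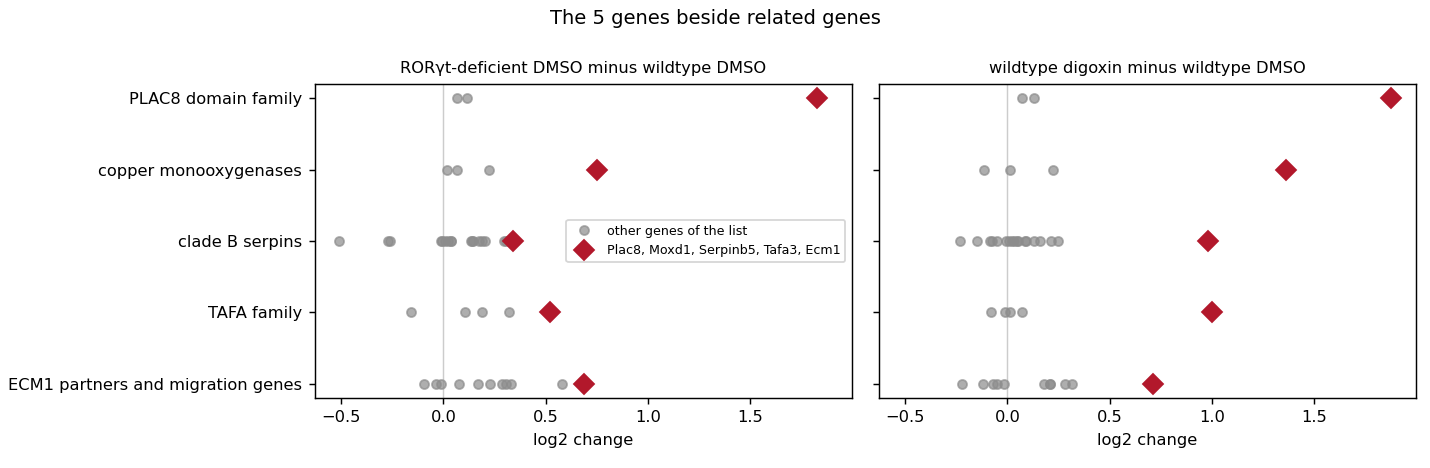
Log2 change (horizontal axis) of the 5 genes (red diamonds) and of the other measured genes of each list (grey circles), for RORγt-deficient minus wildtype cells in DMSO and for digoxin minus DMSO in wildtype cells. With digoxin in wildtype cells each diamond lies right of every circle of its row, where the circles reach at most 0.31. The 5 genes were chosen for large rises in that comparison, so this placing follows from the choice.

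Of 8 T cell markers 7 were measured, Cd4 among them, all with a lowest array level of 8 or above, and none was called in the 4 comparisons. That level was not particular to T cell markers, since the plasmacytoid dendritic cell markers Bst2 and Irf8 also had it. The CD4 T cell label was not tested beyond these values. Because Plac8 is also a gene of myeloid cells and Serpinb5 and Moxd1 are better known outside the blood, markers of other cells were read beside them. In bulk RNA, fewer cells of a type and less RNA per cell cannot be told apart. The mean of 9 measured myeloid markers was 0.11 and 0.24 in RORγt-deficient digoxin, -0.05 and 0.03 in RORγt-deficient DMSO, 0.04 and 0.21 in wildtype digoxin, and 0.02 and -0.02 in wildtype DMSO. Its largest member change was 0.36 with digoxin in wildtype cells and 0.11 with RORγt deficiency in DMSO, both of Adgre1. With digoxin in RORγt-deficient cells the median of the myeloid markers was 0.22, against 0.02 over all genes. Single myeloid markers ran from -0.13 for Itgam to 0.43 for Csf1r. In the same comparison the B cell and NK cell markers had medians of 0.17 and 0.14, and the T cell and CD8 markers 0.03 and -0.08. The median of the 5 genes was 0.27, and Plac8 stood at 0.50. The mean of 6 plasmacytoid dendritic cell markers lay between 0.05 and 0.17 on the 6 arrays outside wildtype DMSO, against -0.02 and 0.02 in wildtype DMSO. The mean of 5 NK cell markers lay between 0.11 and 0.31 on these 6 arrays, against 0.05 and -0.05 in wildtype DMSO, so it moved in the same direction as the 5 genes. This direction was not particular to NK cell markers. The mean of the 7 T cell markers lay between 0.15 and 0.29 on these 6 arrays, against -0.04 and 0.04 in wildtype DMSO. That of the 2 CD8 genes lay between 0.05 and 0.24, against -0.03 and 0.03. With digoxin in wildtype cells Eomes stood at 0.40, Gzma at 0.39, Klra8 at 0.24, Ncr1 at 0.10 and Fcgr3 at -0.03. With RORγt deficiency in DMSO Klra8 stood at 0.32, Gzma at 0.29, Eomes at 0.24, Ncr1 at 0.00 and Fcgr3 at -0.29. The CD8 genes Cd8a and Cd8b1 stood at 0.09 and 0.03 with digoxin in wildtype cells and at 0.22 and 0.23 with RORγt deficiency in DMSO. Of 5 B cell markers, the largest change with digoxin in wildtype cells was that of Cd79a (0.48). Of 6 epithelial markers, read because of Serpinb5, Epcam stood at 0.88 with digoxin in wildtype cells and 0.94 with RORγt deficiency in DMSO, Krt8 at 0.36 and 0.31, Krt18 at -0.49 and -0.75, and with digoxin in wildtype cells the keratin genes Krt5 (0.06) and Krt14 (-0.19) showed no call either. The mean of 5 stromal markers lay between -0.10 and 0.03 on the same 6 arrays. Of all these markers 0 were called in the 4 comparisons, but Epcam was called with RORγt deficiency in DMSO without either RORγt-deficient digoxin array (limma adjusted p = 0.0391) and when that comparison was fitted on its own 4 arrays (limma adjusted p = 0.0423). The part of other cells in the changes of the 5 genes was not tested beyond these values.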

How the data were processed

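Log2 expression was read from 8 Affymetrix Mouse Genome 430 2.0 arrays of 4 groups, assigned by title. The authors deposited log2 values made with RMA, per the submitters' processing notes, and the series' design text names GeneSpring GX 11.5. For each probe set the 2 wildtype DMSO values sum to 0 within 1e-06, a centring that no label records. The lowest array level before centring was read as a range from the binary step of the values. RORγt's own gene was not analysed here.

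The probe annotation gave 1 symbol for 34958 probe sets, several for 932 (not used) and none for 9211. For each of 18193 genes 1 probe set was taken by suffix (_at, _a_at, _s_at, _x_at), then identifier. Symbols came from RefSeq (GRCm38.p6) for 34741 probe sets.

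Limma 3.58.1 (R 4.3.3) fitted the 4 group means to all 8 arrays, with 4 residual and 5.8 prior degrees of freedom. Tests were two-sided, with Benjamini-Hochberg adjustment over all 18193 genes, and a gene was called where its adjusted p was under 0.05. Errors given as ± are limma SEs. The number of arrays limits precision. The script was tested on simulated data. The 5 genes, the related-gene and marker lists and the naming rules were chosen with earlier results of these data known. Named besides the 5 are the 3 most like genes of each, the other called rises with digoxin in wildtype cells, and from each list the called genes and the 2 with the largest absolute change. Genes just outside the threshold, and further list genes and markers, were named after their values were seen. Alternatives were a replicate block, fewer groups, each array left out, quantile normalisation, array weights, a level filter, robust eBayes, all probe sets and the median of a gene's probe sets.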

Additional observations from a re-analysis of the deposited data

How the results depend on the processing

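Over 16 alternatives, the changes of the 5 genes with digoxin in wildtype cells and with RORγt deficiency in DMSO kept their sign, and limma called 0 of the 5 for digoxin in RORγt-deficient cells and for RORγt deficiency under digoxin in any of them. Counts of called genes moved more. Against 22 genes called for digoxin in wildtype cells and 191 for RORγt deficiency in DMSO, the counts were 9 and 95 (9 and 92 of them shared) when each comparison was fitted on its own 4 arrays, where 1 of the 5 genes was called for digoxin in wildtype cells, and 4 and 3 after quantile normalisation, where 0 of the 5 were called in either and the 1 gene each of the other 2 comparisons fell to 0. For digoxin in wildtype cells array weights gave 35 genes and the median of a gene's probe sets 40. That median also gave 2 for RORγt deficiency under digoxin and called 5 of the 5 genes, in place of 3, for RORγt deficiency in DMSO, with Serpinb5 at 0.54. The cause of these shifts was not tested.

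With each array left out in turn, digoxin in wildtype cells gave 6 to 23 genes (lowest without wildtype DMSO array 1) and 1 to 4 of the 5, RORγt deficiency in DMSO gave 17 to 188 (lowest without wildtype DMSO array 2) and 1 to 3 of the 5, and RORγt deficiency under digoxin gave 0 to 2, with 0 without RORγt-deficient digoxin array 2. A lone array of a group is then assumed to vary like the other groups. No label says that the replicate numbers pair the arrays. Over genes, the deviations of same-numbered arrays correlated at 0.32 to 0.45 among the 3 groups other than wildtype DMSO, which share a shift between numbers, and at -0.24 to -0.14 between each of these and wildtype DMSO, so pairing across all groups was not established. With the replicate number as a block the counts were 25 for digoxin in wildtype cells, 181 for RORγt deficiency in DMSO and 2 for RORγt deficiency under digoxin. With this block Ecm1 was not called for digoxin in wildtype cells (4 of the 5 called), and Tafa3 was called for RORγt deficiency in DMSO (4 of the 5). The most like genes depended on the measure: with Pearson correlation over the 8 arrays, 1 of the 3 was shared for Plac8 (Klrd1) and 0 for each of the other 4 genes. In the 150 bases before the start, TTCNNNGAA was in 1 of the 6 promoters in place of 2. The level filter used the lowest array and so can remove genes that fell.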
